A study of Mus musculus with 5 samples.

Results

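Prostaglandin receptors are described here across leukocytes of mouse tumours and bone marrow cultures: the genes Ptger2, Ptger4, Ptger3 and Ptgir, 4 of the 18087 genes listed in the 5555 tumour matrix. They were taken by name and not by their values. A receptor-bearing cell is a cell with at least 1 unique molecule (UMI) of the gene, and every annotated class of cells was read in each library. Of the annotated cells, 1634 of 3879 (42.1%) from NK cell-depleted Ptgs-/- tumours, 1597 of 4677 (34.1%) from Ptgs-/- tumours and 537 of 3262 (16.5%) from Ptgs+/+ tumours held a UMI of any of the 4 genes. In CT26 tumours 1562 of 8987 cells (17.4%) did. In bone marrow cultures the counts were 679 of 3584 cells (18.9%) with Ptgs-/- tumour cells, 856 of 3884 (22.0%) with Ptgs+/+ tumour cells and 874 of 3344 (26.1%) in untreated cultures.

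The study sequenced single live CD45+ leukocytes by droplet 3′ RNA-seq. The 5555 melanoma line was grown in C57BL/6 mice and taken on day 4 in 3 libraries: a Ptgs-/- line, which cannot make prostaglandins, in animals given anti-NK1.1 (clone PK136) and anti-Asialo GM-1 antibodies to remove NK cells, the same Ptgs-/- line without antibody, and the Ptgs+/+ line. The gene deletion was in the tumour cells, not in the leukocytes that were sequenced. A CT26 tumour library from BALB/c mice was taken on day 12. C57BL/6 bone marrow cultures grown with FLT3L and GM-CSF were harvested on day 10 after co-culture with 5555 Ptgs-/- cells, co-culture with 5555 Ptgs+/+ cells or no treatment, and were pooled into 1 library by hashtag antibodies.

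Prostaglandin E2 is made from arachidonic acid by the cyclooxygenases and terminal synthases and acts on the EP receptors. EP2 (Ptger2) and EP4 (Ptger4) couple to Gs and raise cAMP, as does the prostacyclin receptor IP (Ptgir). EP3 (Ptger3) couples mainly to Gi and lowers cAMP. In macrophages and dendritic cells (DCs), EP2 and EP4 are known to restrain inflammatory cytokine release, and EP4 is known to support DC maturation and migration. EP2 resists desensitisation by its ligand more than EP4 does.

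In the GENCODE annotation of mm10, Ptger4 lies on chromosome 15 from 5206661 to 5244187 on the minus strand, Ptger2 on chromosome 14 from 44988195 to 45003820 on the plus strand, Ptgir on chromosome 7 from 16906490 to 16910905 on the plus strand and Ptger3 on chromosome 3 from 157566892 to 157645888 on the plus strand. The promoters of Ptger4 and Ptger2 are printed because these 2 receptors bind the same ligand and couple to the same G protein, yet were highest in different cells. Each is the RefSeq window of GRCm38.p6 from 250 bases before to 50 bases after the transcript start, with every CG dinucleotide in capitals. Ptger4 is at chr15:5244138-5244437, minus strand, and Ptger2 at chr14:44987861-44988160, plus strand.
Ptger4: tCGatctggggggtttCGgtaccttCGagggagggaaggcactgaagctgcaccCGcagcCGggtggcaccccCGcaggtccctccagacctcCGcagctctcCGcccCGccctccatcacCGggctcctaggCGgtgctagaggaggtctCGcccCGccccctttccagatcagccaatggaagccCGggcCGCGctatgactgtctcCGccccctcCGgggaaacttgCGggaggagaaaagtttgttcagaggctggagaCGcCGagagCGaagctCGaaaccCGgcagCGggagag
Ptger2: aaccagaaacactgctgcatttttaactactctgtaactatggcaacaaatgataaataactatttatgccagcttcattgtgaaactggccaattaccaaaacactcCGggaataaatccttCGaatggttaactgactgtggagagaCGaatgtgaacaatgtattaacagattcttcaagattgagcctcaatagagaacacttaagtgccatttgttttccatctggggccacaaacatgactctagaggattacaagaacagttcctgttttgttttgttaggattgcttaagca
The Ptger4 window holds 25 CG dinucleotides at 67.0% GC, and 18.4% of the 32851 RefSeq windows hold at least as many. The Ptger2 window holds 3 at 37.7% GC, and 31.4% of windows hold at most as many. It ends at 44988160, before the GENCODE start of Ptger2 at 44988195, so the 2 annotations place this start differently. The Ptger4 window spans the GENCODE start of its gene at 5244187. The CG counts of Ptger2 therefore describe the RefSeq window only. Neither strand of the 4 receptors' windows holds the cAMP response element TGACGTCA, present in 1.79% of all windows, or the shorter core TGACG (also inside the full element), present in 20.8%. Exons of Ptger4 overlap those of Ttc33 and of the pseudogene Gm15937 on the opposite strand, and exons of Ptger2 overlap those of Gm17173 and Gm49364. Whether counting used strand is not given in the sources used here, so shared stretches could be assigned to either gene. In monocytes with macrophages Ttc33 had a mean of 21.6 CPM (UMIs scaled to a common total per cell) in Ptgs-/- tumours and 17.8 CPM in Ptgs+/+ tumours, a log2 fold of 0.22. In cDC2 it had 12.1 CPM in Ptgs-/- and 20.9 CPM in Ptgs+/+ tumours (57 and 54 UMIs), a log2 fold of -0.60, and cDC3 (1 and 7 UMIs) and cDC1 (1 and 4 UMIs) were also lower in Ptgs-/- tumours, at -1.60 and -1.54.

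Each group is 1 library, or 1 hashtagged condition of 1 library, the labels do not say how many mice a library holds, and no test between groups was possible. Differences are given by size, with 95% intervals that cover counting error only and say nothing of the spread between animals or cultures. The median depth was 5462, 4562 and 3634 UMIs per cell in NK-depleted Ptgs-/-, Ptgs-/- and Ptgs+/+ tumours, 3822 in CT26 tumours and 8806 to 9709 in the cultures. Shares of cells with a UMI grow with depth and are therefore also given after thinning each cell to 1000 UMIs in tumours or 5000 in cultures. Cells below that depth were left out, so thinned shares can cover fewer and deeper cells than the unthinned shares beside them. A fold is the difference of log2(mean CPM + 5), a scale that understates the change of low genes, and a gene past 1.5-fold in either direction is called higher or lower. Within the 5555 matrix 9 barcodes occurred in 2 libraries, and their 18 cells were left out. Annotated classes were checked against their marker lists, except Mono Mac of 5555 tumours and moDC of CT26 tumours, which are named only by their labels. The NK cell class of the depleted library, 45 cells, had 16.6 CPM summed over the NK list against 10249 CPM in Ptgs-/- and 9951 CPM in Ptgs+/+ tumours, so its label is not borne out there and it is left out of the receptor comparisons. TAM 1 of CT26 tumours ranked 7 of 14 classes for the macrophage list, at 1076 CPM summed, and TAM 2 of 5555 tumours ranked 5, 5 and 6 of 14 in NK-depleted Ptgs-/-, Ptgs-/- and Ptgs+/+ tumours, so both are named only by their labels. The T cell class of the depleted library ranked 2 of 14 for the T cell list. In the cultures, proliferating cDC1 ranked 3 of 6 for the cDC1 list in both co-cultures and 2 of 6 untreated. The list summed to 1196 CPM there with Ptgs-/- cells, 752 CPM with Ptgs+/+ cells and 2288 CPM untreated. cDC1 ranked first in each condition, at 1776, 1326 and 2473 CPM in the same order. The part of this list in the receptor levels was not tested. Macrophage transcripts C1qa, C1qb, C1qc and Apoe reached at most 8.90% of their library mean in T and NK cells, the level left to free RNA.

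Ptger4 was highest in the CCR7+ dendritic cells of every tumour library. These cells, annotated cDC3 in 5555 tumours and actDC in CT26 tumours, ranked first for the list Ccr7, Fscn1, Cacnb3, Ccl22, Nudt17 and Socs2 and are known for carrying tumour antigen to lymph nodes. Mean Ptger4 was 465 CPM in cDC3 of NK-depleted Ptgs-/- tumours (129 UMIs in 45 cells), 377 CPM in Ptgs-/- tumours (131 UMIs in 58 cells) and 228 CPM in Ptgs+/+ tumours (61 UMIs in 54 cells). Ptger4 was seen in 73.3%, 70.7% and 48.1% of those cells in the same order. In CT26 actDC it was 162 CPM, in 45.5% of 112 cells. In each of the 4 tumours the interval of this class lay wholly above that of the next class, and no other neighbouring pair in the order of classes was separated in this way.

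Below the CCR7+ cells, Ptger4 lay between 90.8 and 123 CPM in cDC1, cDC2, NK cells, T cells and monocytes of Ptgs-/- tumours. Mono Mac, a small cluster annotated between monocytes and macrophages, had the lowest level there, 17.5 CPM. In Ptgs+/+ tumours NK cells, T cells, cDC1 and cDC2 stayed between 78.2 and 84.0 CPM, while every monocyte and macrophage class lay at or below 50.0 CPM and TAM 2 was at 8.85 CPM. Ptger4 in T and NK cells stood at 97.8% to 138% of the library mean in Ptgs-/- and CT26 tumours and at 207% and 222% in Ptgs+/+ tumours, far above the 8.90% of the macrophage transcripts.

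**Figure D1:**
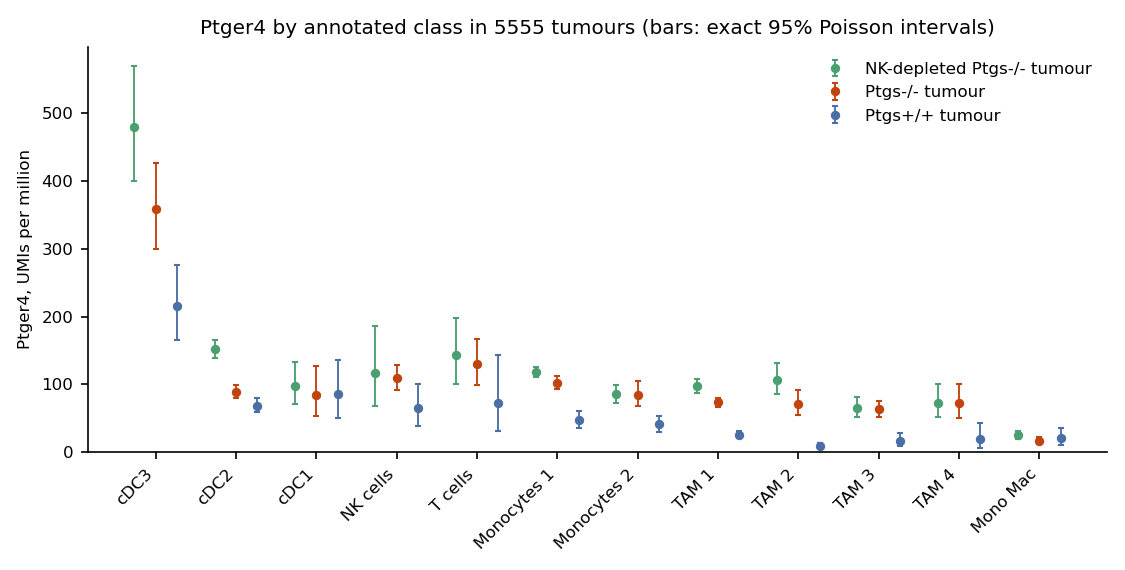
Ptger4 in 5555 tumours, as CPM of the pooled cells on the y axis for each annotated class on the x axis; points are the NK-depleted Ptgs-/-, Ptgs-/- and Ptgs+/+ libraries from left to right and bars are exact 95% Poisson intervals for counting error (the NK cell class of the depleted library is drawn too). cDC3 stands above all other classes in each library, and in TAM 2 the Ptgs+/+ library lies at 8.48 against 71.2 in the Ptgs-/- library.

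Between Ptgs-/- and Ptgs+/+ tumours, Ptger4 was higher in macrophages and monocytes. Pooled monocytes with macrophages held 1252 Ptger4 UMIs in 3184 cells of Ptgs-/- tumours and 238 UMIs in 2360 cells of Ptgs+/+ tumours. The UMI ratio, taken after dividing by each library's summed UMIs, was 2.91 (95% interval 2.53 to 3.35), and the log2 fold was 1.505. More cells carried the RNA: 25% (Clopper-Pearson 23.5 to 26.5) in Ptgs-/- tumours and 7.84% (6.79 to 9.0) in Ptgs+/+ tumours, or 6.98% and 2.35% after thinning. There were 1.57 UMIs per bearing cell in Ptgs-/- and 1.29 in Ptgs+/+ tumours, in cells whose median depth was 5783 and 4221 UMIs. A bearing cell holds at least 1 UMI by definition, so these numbers do not scale with depth. Whether bearing cells held more at equal depth was not tested. Of 7691 genes seen in at least 5% of these cells in either library, 8.46% were past 1.5-fold higher and 6.57% past 1.5-fold lower, and the fold of Ptger4 lay at percentile 99.1 of all of them.

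Of the 7 clusters, 6 were past 1.5-fold higher. TAM 2 showed the largest difference, 74.9 CPM in Ptgs-/- and 8.85 CPM in Ptgs+/+ tumours, with a UMI ratio of 8.40 (4.97 to 14.8). The summed macrophage list of TAM 2 moved with it, at 3847 CPM in Ptgs-/- and 1634 CPM in Ptgs+/+ tumours, and its part was not tested. In TAM 4 the levels were 75.1 and 16.1 CPM (ratio 3.91, 1.53 to 12.8), and in TAM 3 they were 65.1 and 17.2 CPM (3.95, 2.18 to 7.86). The other macrophage cluster, TAM 1, had 76.2 CPM in Ptgs-/- and 26.0 CPM in Ptgs+/+ tumours (2.92, 2.32 to 3.72). The monocyte clusters had lower ratios, with intervals that overlapped that of TAM 1. Monocytes 1 had 106 CPM in Ptgs-/- and 50.0 CPM in Ptgs+/+ tumours (2.17, 1.64 to 2.93). Monocytes 2 had 93.4 and 45 CPM (2.07, 1.44 to 3.01). The TAM clusters thus stood at 65.1 to 76.2 CPM beside monocytes at 93.4 and 106 CPM in Ptgs-/- tumours, and at 8.85 to 26.0 CPM beside monocytes at 45 and 50.0 CPM in Ptgs+/+ tumours.

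Mono Mac was the exception, with 17.5 CPM in Ptgs-/- and 15.1 CPM in Ptgs+/+ tumours, a log2 fold of 0.16 and a UMI ratio of 0.779 (0.392 to 1.68) from 40 and 11 UMIs. That value depended on the gene-richest cells: without the 5% of each library's cells with the most genes its log2 fold was 2.29. The cut was set over all classes, so it can remove more than 5% of this cluster. Among 4294 genes seen in every cluster, 1.54% were higher in at least 6 and 1.89% lower in at least 6.

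Other cells moved with this comparison. Summed neutrophil markers in monocytes with macrophages were 168.5 CPM in Ptgs-/- and 1047 CPM in Ptgs+/+ tumours, with 1 and 5 of 8 genes in at least 5% of cells, and summed platelet markers 19.6 and 233 CPM. The summed macrophage list was 8134 CPM in Ptgs-/- and 4428 CPM in Ptgs+/+ tumours, with all 7 genes in at least 5% of cells of both. The part of these lists in the result was not tested. Leaving out cells with a UMI of Cd3e, Ncr1, Cd79a, S100a8 or Ccr7 gave a log2 fold of 1.49 for Ptger4. Giving the 7 clusters equal weights in both libraries gave 1.41.

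In dendritic cells the difference was smaller. In cDC3 the ratio was 1.67 (1.22 to 2.30) and the log2 fold 0.71, in a class where 24% of genes were past 1.5-fold higher and 23.7% lower. In cDC2, with 375 UMIs in Ptgs-/- and 175 in Ptgs+/+ tumours, Ptger4 was 95.2 and 82.7 CPM (ratio 1.30, 1.08 to 1.56), within 1.5-fold. In cDC1 it was 90.8 and 83.0 CPM (0.982, 0.503 to 1.94), an interval too wide to exclude a 1.5-fold difference either way. In lymphocytes the intervals were also wide: NK cells had 117 CPM in Ptgs-/- and 84.0 CPM in Ptgs+/+ tumours (1.69, 1.04 to 2.90), and T cells 123 and 78.2 CPM (1.78, 0.849 to 4.32).

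**Figure D2:**
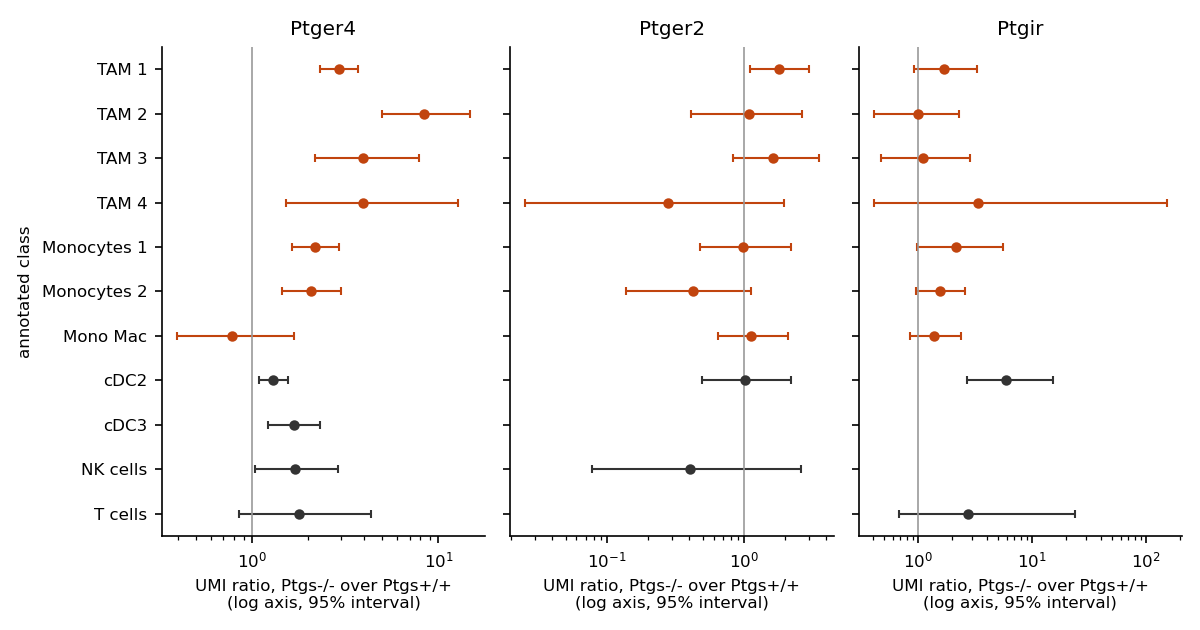
UMI ratio, relative to summed UMIs, in Ptgs-/- over Ptgs+/+ 5555 tumours on a log x axis, for Ptger4, Ptger2 and Ptgir by annotated class down the y axis; bars are exact conditional 95% intervals, orange marks monocyte and macrophage clusters, dark grey marks cDC2, cDC3, NK cells and T cells, and a class is not drawn where either library has no UMI. For Ptger4, 6 of the 7 orange intervals lie above 1, while for Ptger2 only that of TAM 1 does and for Ptgir the interval of cDC2 does.

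NK cell depletion was read against the Ptgs-/- library, which is also the first library of the comparison above. Ptger4 was higher after depletion in cDC2, the DC subset that mainly presents antigen to CD4 T cells: 170 CPM in NK-depleted Ptgs-/- tumours (481 UMIs in 406 cells) and 95.2 CPM in Ptgs-/- tumours (375 UMIs in 523 cells). The ratio was 1.71 (1.49 to 1.96) and the log2 fold 0.80, at percentile 99.1, in a class where 3.54% of genes were past 1.5-fold higher and 3.49% lower. After thinning, 13.6% of cDC2 carried a UMI in NK-depleted and 8.48% in undepleted tumours; unthinned the shares were 48.0% and 40.0%. Summed macrophage markers in cDC2 were 1344 CPM in NK-depleted and 2048 CPM in undepleted Ptgs-/- tumours, and the CCR7+ list 109 and 158 CPM. The part of these lists in the Ptger4 level was not tested.

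In monocytes with macrophages the Ptger4 levels were 94.4 CPM in NK-depleted and 77.8 CPM in undepleted Ptgs-/- tumours (ratio 1.26, 1.17 to 1.36), within 1.5-fold in all 7 clusters. There 1.14% of genes were past 1.5-fold higher and 1.29% lower. In cDC3 the ratio was 1.34 (1.04 to 1.72).

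Ptger2 had another distribution. Among classes with more than 10 UMIs, its highest level in 5555 tumours was in Mono Mac, with 30.4 CPM (95 UMIs) in NK-depleted Ptgs-/-, 33.4 CPM (79 UMIs) in Ptgs-/- and 24.7 CPM (15 UMIs) in Ptgs+/+ tumours. That cluster held 32.9%, 26.9% and 12.1% of each library's Ptger2 UMIs with 6.96%, 5.2% and 1.75% of its cells. TAM 3 stood at 17.8 CPM in NK-depleted Ptgs-/-, 24.4 CPM in Ptgs-/- and 13.6 CPM in Ptgs+/+ tumours. CCR7+ cDC3, where Ptger4 was highest, had 0 Ptger2 UMIs in 45 cells of NK-depleted Ptgs-/- and in 58 cells of Ptgs-/- tumours, which allows shares of cells with a UMI of up to 6.67% and 5.17% and does not bound the cells that express the gene, and 2 UMIs in 54 cells of Ptgs+/+ tumours. The actDC of CT26 tumours also had 0 UMIs.

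Between Ptgs-/- and Ptgs+/+ tumours, Ptger2 in monocytes with macrophages was 13.3 and 10.0 CPM, from 251 and 98 UMIs. The ratio of 1.41 (1.12 to 1.81) stayed within 1.5-fold, and the thinned shares were 1.31% and 1.01%. TAM 1 had 11.9 CPM in Ptgs-/- and 6.43 CPM in Ptgs+/+ tumours (1.79, 1.11 to 3.00), just inside the limit at a log2 fold of 0.57. Of the 7 clusters, 1 was past 1.5-fold higher, TAM 3 (45 and 11 UMIs). Past it lower were 2, Monocytes 2 (6 and 17 UMIs) and TAM 4 (2 and 4 UMIs). Of all genes, 19.4% were past 1.5-fold higher in TAM 3, and 6.78% lower in Monocytes 2 and 15.2% in TAM 4. With so few UMIs, whether the clusters differ in direction cannot be told. NK cell depletion left Ptger2 of monocytes with macrophages at 12.3 CPM against 13.3 CPM in undepleted Ptgs-/- tumours (0.974, 0.816 to 1.16), an interval that excludes a 1.5-fold difference.

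Ptgir, the prostacyclin receptor, was also highest among myeloid cells in Mono Mac: 60.9 CPM in NK-depleted Ptgs-/-, 48.4 CPM in Ptgs-/- and 31.9 CPM in Ptgs+/+ tumours. Monocytes 2 followed at 31.8, 38.8 and 25.3 CPM in the same order. The T cell class had a comparable level of 77.3 CPM (21 UMIs in 109 cells) in NK-depleted Ptgs-/-, 50.6 CPM (23 UMIs in 214 cells) in Ptgs-/- and 25.2 CPM (2 UMIs in 66 cells) in Ptgs+/+ tumours. This class also held markers of group 2 innate lymphoid cells, summing to 3115, 2107 and 1766 CPM with 4 of 6 genes in at least 5% of cells, beside 1675, 2160 and 2252 CPM for the T cell list; their part in the Ptgir level was not tested. No Ptgir UMI was found in 510 NK cells of Ptgs-/- tumours, which allows a share of cells with a UMI of up to 0.588%, or in 137 NK cells of Ptgs+/+ tumours (up to 2.19%). cDC1 had 0 in all 3 5555 libraries, in 54, 33 and 38 cells.

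**Figure D3:**
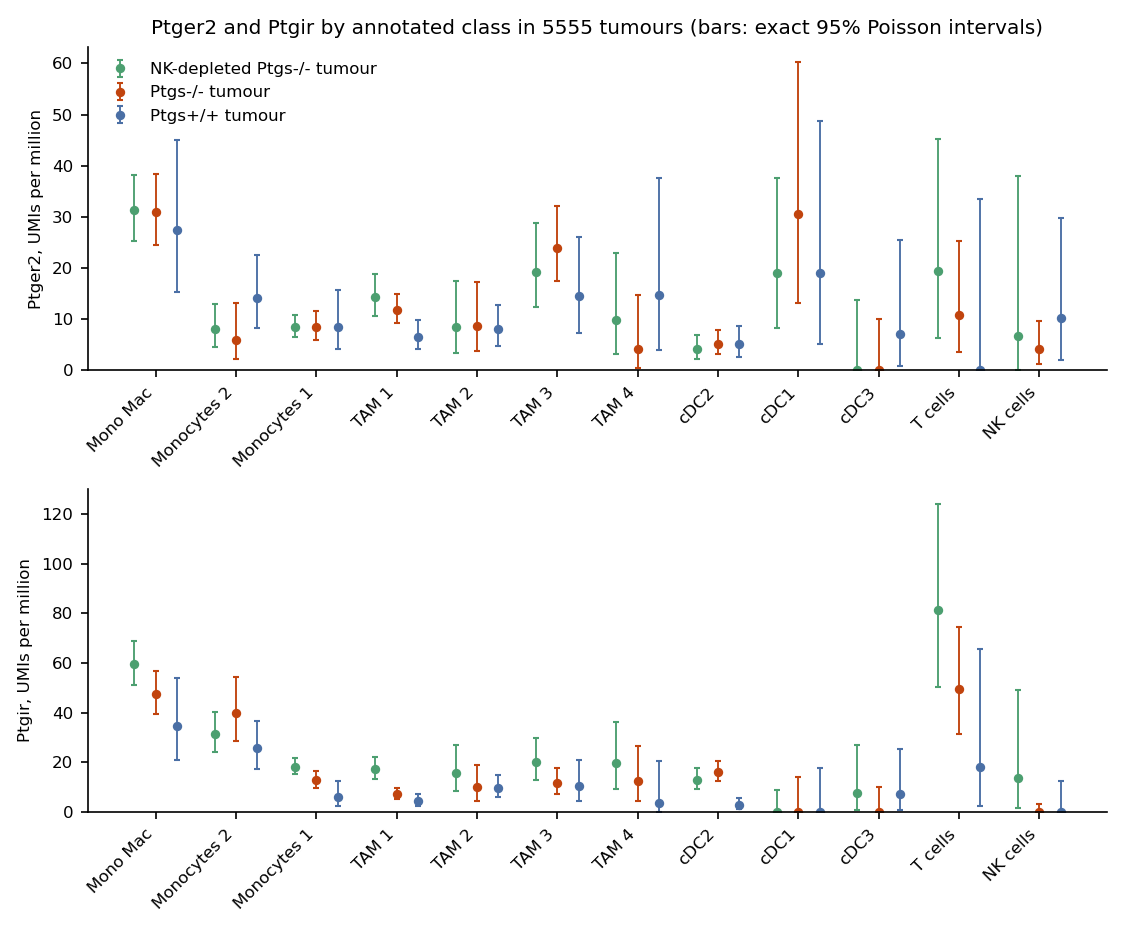
Ptger2 (upper panel) and Ptgir (lower panel) in 5555 tumours, as CPM of the pooled cells on the y axis by annotated class on the x axis; points are the NK-depleted Ptgs-/-, Ptgs-/- and Ptgs+/+ libraries from left to right and bars are exact 95% Poisson intervals. Mono Mac leads the monocyte and macrophage classes for both genes in each library, and Ptgir is at 0 in cDC1 of every library.

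In monocytes with macrophages Ptgir was 15.5 CPM in Ptgs-/- and 10.5 CPM in Ptgs+/+ tumours (302 and 103 UMIs), a ratio of 1.62 (1.29 to 2.05) at a log2 fold of 0.41. The largest Ptgir ratio was in cDC2, with 15.6 CPM in Ptgs-/- and 3.15 CPM in Ptgs+/+ tumours, from 68 and 7 UMIs. Its ratio was 5.89 (2.71 to 15.2) and its log2 fold 1.34, at percentile 98.4, in a class where 10.7% of genes were past 1.5-fold higher and 7.57% lower. Thinned shares of bearing cDC2 were 1.54% and 0.315%. Summed macrophage markers in cDC2 moved in the same direction, 2048 CPM in Ptgs-/- and 748 CPM in Ptgs+/+ tumours, with all 7 genes in at least 5% of cells of both. Without cells holding a UMI of C1qa, Cd3e, Ncr1, Cd79a or S100a8 the log2 fold was 1.44.

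After NK cell depletion, Ptgir of monocytes with macrophages was 24.7 CPM, against 15.5 CPM in undepleted Ptgs-/- tumours (492 and 302 UMIs; ratio 1.52, 1.31 to 1.76). The log2 fold of 0.53 was inside the 1.5-fold limit yet at percentile 98.2 in this narrow comparison. TAM 1 showed it most firmly, with 16.5 CPM in NK-depleted and 8.02 CPM in undepleted tumours (2.35, 1.57 to 3.53). Ptgir was past 1.5-fold higher in 4 of the 7 clusters, TAM 1 to TAM 4. The intervals of TAM 2, TAM 3 and TAM 4 included 1. Of all genes, 1.42% were past 1.5-fold higher in TAM 1, 7.73% in TAM 2, 5.01% in TAM 3 and 11.1% in TAM 4. With a pseudocount of 20 CPM the log2 folds of TAM 1, TAM 2 and TAM 3 were 0.38, 0.37 and 0.34, inside the limit. Without cells holding a UMI of another lineage those of TAM 2 and TAM 3 were 0.57 and 0.48, also inside it.

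In CT26 tumours the order of classes could be read in a second tumour and mouse strain, although day, strain and tumour line all differ from the 5555 libraries and cannot be told apart. Ptger4 was 162 CPM in actDC, 73.3 CPM in cDC2 and 66.8 CPM in moDC, and 17.3 CPM in TAM 1, the lowest of the monocyte and macrophage classes. TAM 1 instead had the highest Ptgir, 32.0 CPM from 120 UMIs, and with moDC the highest Ptger2, 13.3 CPM from 48 UMIs. With 4.97% of the cells, it held 32.4% of the Ptgir and 19.9% of the Ptger2 UMIs. Low Ptger4 with high Ptger2 and Ptgir was thus present in CT26 TAM 1 and in 5555 Mono Mac. In Ptgs+/+ tumours the low Ptger4 of Mono Mac, 15.1 CPM, was shared by TAM 2, TAM 4 and TAM 3, at 8.85, 16.1 and 17.2 CPM. NK cells held 1 Ptgir UMI (0.188 CPM).

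**Figure D4:**
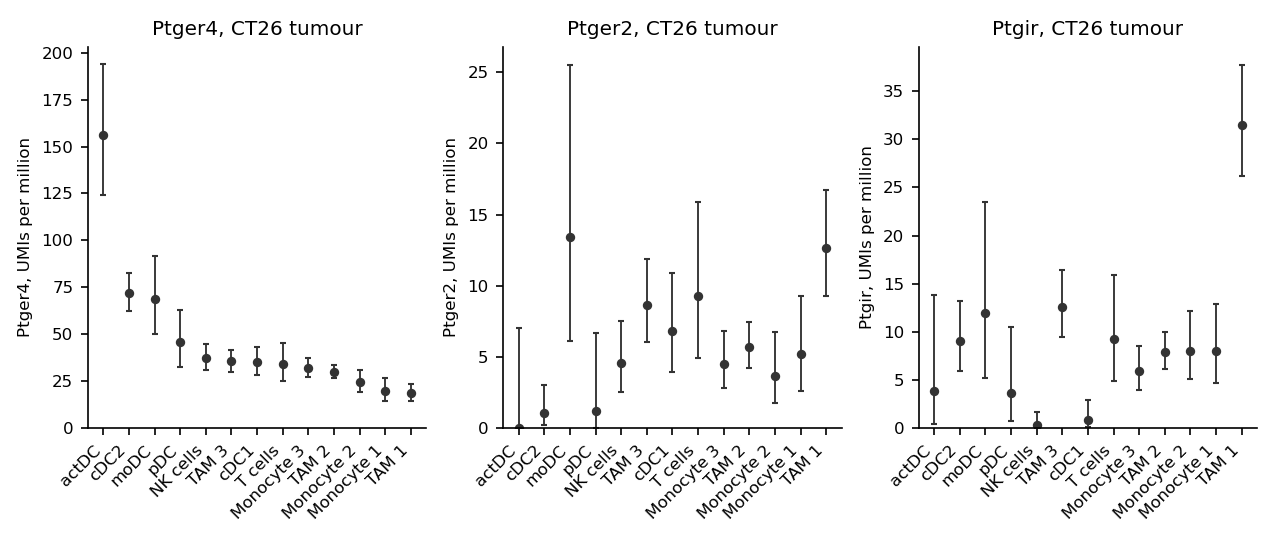
Ptger4, Ptger2 and Ptgir in CT26 tumours, as CPM of the pooled cells on the y axes by annotated class on the x axes, ordered by Ptger4 in all 3 panels; bars are exact 95% Poisson intervals. actDC lead for Ptger4 and TAM 1, the last class for Ptger4, leads for Ptgir. Proliferating cells are not drawn.

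The RNA of a library was divided between its classes by both level and abundance. Monocytes with macrophages held 70.4%, 63.1% and 45.6% of all Ptger4 UMIs of NK-depleted Ptgs-/-, Ptgs-/- and Ptgs+/+ tumours, with 80.1%, 68.1% and 72.3% of the cells. Conventional DCs, cDC3 included, held 27.1%, 26.6% and 48.7%. In Ptgs+/+ tumours DCs therefore carried more of the Ptger4 RNA than the macrophages and monocytes did, with 14.4% of the cells. For Ptger2 and Ptgir the monocytes with macrophages held between 74.3% and 90.7% of the UMIs in all 4 tumours.

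Few cells held a UMI of both Ptger2 and Ptger4, each of which was itself seen in a minority of cells. Among monocytes with macrophages, 62 cells of NK-depleted Ptgs-/-, 43 of Ptgs-/-, 5 of Ptgs+/+ and 19 of CT26 tumours held both. The product of the 2 shares within cluster and depth stratum (low, middle or high) was 62.5, 51.3, 8.10 and 22.6 cells. The count was below the product in each tumour, though barely so in the NK-depleted library. No interval was computed for any pair here, so whether 2 receptors avoid or accompany each other was not tested. Ptger4 with Ptgir was below it too: 101, 36, 4 and 27 cells, against products of 104, 57.4, 8.07 and 35.5. Ptger2 with Ptgir was above it: 49, 33, 12 and 18 cells, against products of 45.8, 29.5, 6.48 and 14.9. Conventional DCs of the cultures, mDC and proliferating cells included, differed from this. There Ptger4 with Ptgir was seen in 5 cells with Ptgs-/- cells, 21 with Ptgs+/+ cells and 18 untreated, against products of 5.94, 9.59 and 12.6. Ptger2 with Ptgir was seen in 0, 1 and 3 cells against products of 1.02, 1.91 and 2.24, and Ptger2 with Ptger4 in 11, 19 and 32 cells against 17.3, 20.3 and 31.1.

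Across classes and libraries the genes whose log2(mean CPM + 5) was most like each receptor's were named by Pearson's r over 41 class and library points of the 5555 tumours, with r over the 14 CT26 classes beside it. Points of 1 library share its depth, so r is a description. The points include the NK cell class of the depleted library. Without it, the r of each gene named here over 40 points moved by less than 0.1, although Polr2d went to rank 8 and Zdhhc3 to rank 5, and Fgd6, Mcee, Pparg and Smpdl3a each lost 1 rank. For Ptger4 these were Cd47 (0.81 in 5555, 0.28 in CT26), Sod1 (0.72, 0.58) and Zdhhc3 (0.71, 0.51). For Ptgir they were Slc41a3 (0.77, 0.55), Pparg, a lipid-sensing nuclear receptor (0.75, 0.72), and Smpdl3a (0.74, 0.61). For Ptger2 they were Fgd6 (0.71, 0.68), Mcee (0.68, 0.28) and Polr2d (0.63, 0.10). Pparg for Ptgir and Fgd6 for Ptger2 kept their likeness in CT26 tumours, while Polr2d and Cd47 did not. Ptger2 and Ptger4 ran in opposite directions in both tumour models (-0.38 and -0.49).

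Receptor-bearing monocytes and macrophages were compared with the other cells, reweighted to the same cluster and depth stratum. No gene was past 1.5-fold in all 4 tumours for Ptger2 (0% of 4867 genes in each direction), Ptger4 (0% of 4795) or Ptgir (0% of 4837), so the differences below are small. The genes named were picked for the highest smallest or lowest largest fold, so their kept direction in all 4 tumours follows from the choice. How many of all genes kept a direction is not given here. Ptger2-bearing cells had more Ptgr1, an enzyme that inactivates leukotriene B4 and oxidised prostaglandins. In NK-depleted Ptgs-/- tumours it had 60.0 CPM in bearing and 38.4 CPM in other cells, in Ptgs-/- tumours 70.9 and 45.9 CPM, in Ptgs+/+ tumours 127 and 83.2 CPM and in CT26 tumours 35.6 and 24.8 CPM. Hmox1, haem oxygenase 1, was higher in Ptger2-bearing cells, by log2 folds of 0.37 to 0.57, and lower in Ptger4-bearing cells, by -0.64 to -0.29. The 2 receptors' bearing cells thus differed from their neighbours in opposite directions for this gene. Ptger4-bearing cells had more Gas6, a ligand of the TAM receptor kinases (0.32 to 0.81), and less Rsad2, an interferon-induced antiviral enzyme (-1.11 to -0.33). Ptgir-bearing cells had more Retnla, a gene of alternative macrophage activation: 3501 CPM in bearing and 2093 CPM in other cells of NK-depleted Ptgs-/- tumours, 3830 and 2174 CPM in Ptgs-/-, 479 and 367 CPM in Ptgs+/+ and 2303 and 1719 CPM in CT26 tumours. These log2 folds, 0.38 to 0.82, depend on the reweighting: without it the Retnla folds were 2.31, 2.39, 3.51 and 2.13 in the same order.

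In bone marrow cultures Ptger4 was again highest in the CCR7+ class, mDC. It was 82.4 CPM (239 UMIs in 477 cells) with Ptgs-/- cells, 67.2 CPM (522 UMIs in 1060 cells) with Ptgs+/+ cells and 67.7 CPM (119 UMIs in 214 cells) in untreated cultures. The interval of mDC lay above that of the next class in all 3 conditions. Because mDC made up 13.3%, 27.3% and 6.4% of the cells, they held 40.5%, 65.0% and 16.4% of all Ptger4 UMIs. Over all cells Ptger4 was 22.0, 25.6 and 22.5 CPM, but at the class shares of the untreated cultures it was 17.0 CPM with Ptgs-/- cells and 13.7 CPM with Ptgs+/+ cells, against 22.5 CPM untreated.

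The lower level lay in the DCs other than mDC. Both co-cultures were set against the same untreated cells. In the cDC1, DCs specialised in cross-presentation, Ptger4 was 13.3 CPM with Ptgs-/- cells and 9.83 CPM with Ptgs+/+ cells, against 17.6 CPM untreated (109, 100 and 171 UMIs). The UMI ratios to untreated were 0.741 (0.577 to 0.948) with Ptgs-/- and 0.603 (0.466 to 0.776) with Ptgs+/+ cells. In cDC2 it was 9.24 CPM with Ptgs-/- and 8.41 CPM with Ptgs+/+ cells, against 15.3 CPM untreated, at ratios of 0.608 (0.447 to 0.822) and 0.569 (0.417 to 0.773). Proliferating cDC1 had ratios of 0.637 (0.50 to 0.806) and 0.519 (0.395 to 0.676), and proliferating cDC2 0.584 (0.378 to 0.90) and 0.367 (0.208 to 0.626). The interval thus lay below 1 in all 4 of these classes in both co-cultures. How many of all genes had such intervals is not given here. Past 1.5-fold lower, with Ptgs-/- and then Ptgs+/+ cells, were 8.29% and 15.9% of all genes in cDC1, and 5.77% and 5.9% in cDC2. In proliferating cDC1 they were 9.16% and 14.2%, and in proliferating cDC2 10.3% and 12.9%.

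The median gene shifted down in these comparisons, although some genes were past 1.5-fold higher. The median log2 fold of genes seen in at least 10% of cells was -0.16 with Ptgs-/- and -0.24 with Ptgs+/+ cells in cDC1, -0.14 and -0.12 in cDC2, and -0.23 and -0.28 in mDC. Relative to it, Ptger4 was at -0.14 and -0.37 in cDC1, at -0.36 and -0.48 in cDC2, and at 0.49 and 0.26 in mDC. None of these relative values is past 1.5-fold. The median gene also shifted down in proliferating cDC1, at -0.17 and -0.20, and in proliferating cDC2, at -0.07 and -0.11.

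Ptger2 went the other way in cDC1, the class with its highest level in every condition. Its level was 11.3 CPM with Ptgs-/- cells (95 UMIs) and 13.1 CPM with Ptgs+/+ cells (120 UMIs), against 6.92 CPM untreated (72 UMIs). The UMI ratios were 1.53 (1.12 to 2.11) and 1.72 (1.27 to 2.34), and the log2 folds relative to the median of all genes 0.61 and 0.84. On the unshifted scale, 0.45 and 0.60, only the co-culture with Ptgs+/+ cells was past 1.5-fold. In cDC1 2.44% of genes were past 1.5-fold higher with Ptgs-/- and 3.71% with Ptgs+/+ cells, and 8.29% and 15.9% lower. Thinned shares of Ptger2-bearing cDC1 were 5.32% with Ptgs-/- and 5.93% with Ptgs+/+ cells, against 3.27% untreated. Neutrophil markers in the cDC1 class summed to 553, 289 and 297 CPM, with 2 of 8 genes in at least 5% of cells, and their part in the value was not tested.

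In mDC Ptger2 had 7 UMIs with Ptgs-/- cells and 11 with Ptgs+/+ cells, against 11 in the far fewer untreated cells, at ratios of 0.380 (0.125 to 1.07) and 0.262 (0.103 to 0.666). Neutrophil markers in mDC moved with it, at 69.8 and 153 CPM against 711 CPM untreated, with 2 of 8 genes in at least 5% of cells, and their part in the value was not tested. In mDC 2.15% of genes were past 1.5-fold higher and 20.5% lower with Ptgs-/- cells, and 3.26% and 25.7% with Ptgs+/+ cells. Ptger2 of mDC, with a log2 fold of -0.26 with Ptgs-/- and -0.47 with Ptgs+/+ cells, was within the limit.

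Ptger3, nearly absent from the tumours (7, 2 and 6 UMIs in NK-depleted Ptgs-/-, Ptgs-/- and Ptgs+/+ tumours and 10 in CT26 tumours), was present in the cultures and lower in both co-cultures. Over all cells there were 20 UMIs (0.565 CPM) with Ptgs-/- cells and 31 UMIs (0.703 CPM) with Ptgs+/+ cells, against 133 UMIs (3.76 CPM) untreated. The ratios were 0.161 (0.095 to 0.258) and 0.222 (0.145 to 0.330). At the untreated class shares the co-culture levels were 0.509 and 0.742 CPM, close to the values as measured. In cDC2 Ptger3 was 1.76 CPM with Ptgs-/- and 1.77 CPM with Ptgs+/+ cells, against 5.91 CPM untreated (13, 15 and 42 UMIs; ratios 0.290, 0.143 to 0.550, and 0.331, 0.171 to 0.610). In cDC2 5.77% of genes were past 1.5-fold lower with Ptgs-/- and 5.9% with Ptgs+/+ cells, and 1.83% and 2.43% higher. Proliferating cDC1 had 2 UMIs with Ptgs-/- and 0 UMIs with Ptgs+/+ cells, against 43 untreated. Set at the floor of 3 counts for the co-culture, the level with Ptgs+/+ cells was at least 8.27-fold lower. Markers of mast cells, a known site of EP3, summed to 21.5, 33.6 and 21.4 CPM in cDC2 with Ptgs-/- cells, with Ptgs+/+ cells and untreated, with 1 of 4 genes in at least 5% of cells.

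Ptgir in the cultures was a cDC2 transcript: this class held 75.8% of its UMIs with Ptgs-/- cells, 66.2% with Ptgs+/+ cells and 72.6% untreated. Its level there was 6.03 CPM with Ptgs-/- and 6.47 CPM with Ptgs+/+ cells, against 9.94 CPM untreated. The ratios, 0.721 (0.482 to 1.07) and 0.806 (0.547 to 1.18), had intervals that include 1.

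**Figure D5:**
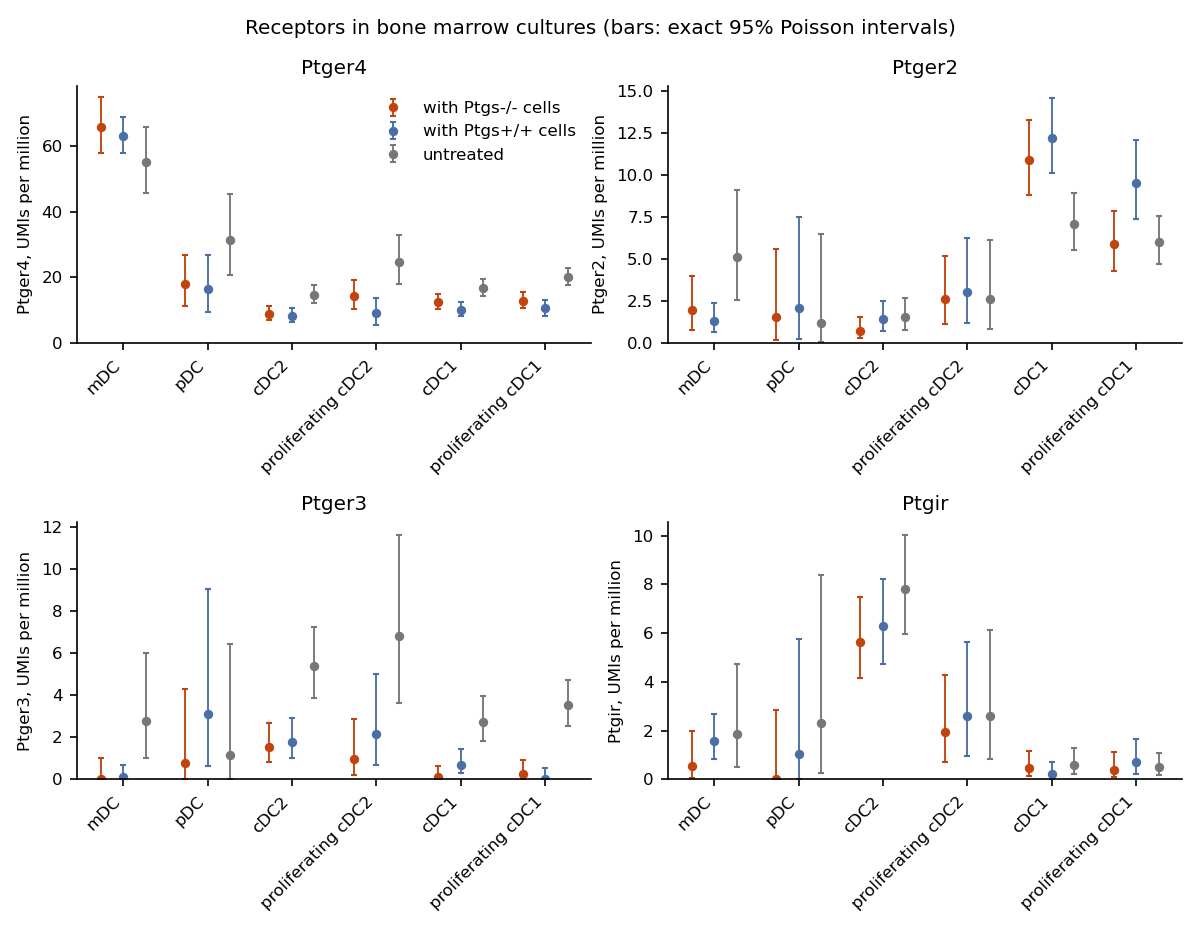
The 4 receptors in bone marrow cultures, as CPM of the pooled cells on the y axes by annotated class on the x axes; points are cultures with Ptgs-/- cells, with Ptgs+/+ cells and untreated, from left to right, and bars are exact 95% Poisson intervals. Untreated cells are highest for Ptger4 in the 5 classes other than mDC and for Ptger3 in 5 of the 6 classes, and lowest for Ptger2 in cDC1.

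Between the co-cultures, none of the 4 receptors was past 1.5-fold in any of the 6 classes. Among all genes the shares past it with Ptgs-/- over Ptgs+/+ cells were 0.807% higher and 0.847% lower in cDC1, 0.158% and 0.558% in cDC2 and 2.33% and 1.5% in mDC. The Ptger4 log2 fold was above 0 in all 6 classes, from 0.02 to 0.39, with every interval of the UMI ratio including 1. For cDC1 that interval ran from 0.928 to 1.63 and for mDC from 0.892 to 1.22, and the second excludes a 1.5-fold difference. The median log2 fold of genes seen in at least 10% of cells was 0.06 in cDC1, -0.02 in cDC2 and 0.03 in mDC. It was 0.04 in plasmacytoid DCs and 0.03 in both proliferating classes. How many of all genes were above 0 in all 6 classes is not given here. Ptger2 in proliferating cDC1 was 6.37 CPM with Ptgs-/- and 10.5 CPM with Ptgs+/+ cells (0.617, 0.414 to 0.911).

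Among cultured conventional DCs, mDC and proliferating cells included, cells bearing a receptor were set against the others of the same class and depth stratum. Ptgir-bearing cells were past 1.5-fold higher in every condition for 0.351% of 5690 genes (20 genes), led by the chemokine gene Ccl9 with 116 CPM in bearing and 52.0 CPM in other cells with Ptgs-/- cells, 134 and 44.9 CPM with Ptgs+/+ cells and 208 and 37.9 CPM untreated. F10, Tgfbi and Ccl6 followed, and 0.0176% (1 gene, Ifi211) were lower in every condition. Ptger4-bearing cells had more Fscn1 and Ccl22, both genes of the CCR7+ list, by log2 folds of 0.55 to 0.91 and 0.45 to 0.79, with 0% of 5318 genes past 1.5-fold in every condition in either direction. Ptger2-bearing cells had more S100a8 (0.62 to 1.03), the only one of 5526 genes past it in every condition (0.0181% higher, 0% lower).

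Of the other prostanoid receptors, Ptger1, Ptgdr2 and Tbxa2r were in the 5555 matrix. Each had at most 10 UMIs in any 5555 library, and none reached 5% of cells in monocytes with macrophages or cDC2. Among 14 genes of prostanoid synthesis, transport and breakdown, 9 were seen in at least 5% of monocytes with macrophages in Ptgs-/- or Ptgs+/+ tumours: 3 were past 1.5-fold higher and 1 lower, beside 8.46% and 6.57% of all genes, with a median log2 fold of 0.01, beside 0.06 over all genes. Ptgs2, the inducible cyclooxygenase, had 327 CPM in host cells of Ptgs-/- and 1020 CPM of Ptgs+/+ tumours. The thromboxane synthase gene Tbxas1 had 130 and 21.7 CPM, and the prostaglandin D2 synthase gene Hpgds 45.9 and 18.6 CPM. Ptger4 and Tbxas1 were thus higher, and Ptgs2 lower, in Ptgs-/- than in Ptgs+/+ tumours.

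Of 19 genes of cAMP signalling, 16 were seen there, 1 past 1.5-fold higher and 4 lower, beside 8.46% and 6.57% of all genes, with a median of 0.11. The phosphodiesterase genes Pde4b (50.1 CPM in Ptgs-/-, 142 CPM in Ptgs+/+ tumours) and Pde3b (39.9 and 101 CPM), whose products break cAMP down, were among those lower, as was the cAMP-induced repressor gene Crem (46.0 and 94.4 CPM). All 6 desensitisation genes seen were within 1.5-fold, such as Arrb2, a beta-arrestin, at 149 and 166 CPM. In cDC2 the same 3 cAMP genes were lower in Ptgs-/- tumours, Crem at 40.6 and 85.2 CPM among them, 3 of 14 genes, with 2 higher, beside 7.57% lower and 10.7% higher among all genes.

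In cDC1 and cDC2 of the cultures Crem and Pde4b were higher with tumour cells. Of 15 genes seen in cDC1, 4 were past 1.5-fold higher with Ptgs-/- cells and 0 lower, and with Ptgs+/+ cells 4 were higher and 1 lower. Among all genes 2.44% were higher and 8.29% lower with Ptgs-/- cells, and 3.71% and 15.9% with Ptgs+/+ cells. The list had medians of -0.11 and -0.13 beside -0.16 and -0.23 over all genes. Crem was 112 CPM with Ptgs-/- and 138 CPM with Ptgs+/+ cells, against 27.3 CPM untreated. Pde4b was 50.1 and 54.9 CPM, against 17.9 CPM untreated. In cDC2 Crem was 52.1 and 43.1 CPM, against 16.2 CPM untreated, and Pde4b 35.4 and 39.8 CPM, against 10.1 CPM untreated. In mDC Crem was 125 and 127 CPM, against 76.7 CPM untreated. It was the only 1 of 15 cAMP genes seen in mDC past 1.5-fold higher in either co-culture. With Ptgs-/- cells 2 of them were lower and with Ptgs+/+ cells 3, beside 20.5% and 25.7% of all genes. Past it higher were 2.15% and 3.26% of all genes. Between the co-cultures, where 0.807% of all genes in cDC1 were higher and 0.847% lower, 0 of 15 cAMP genes in cDC1 were past 1.5-fold in either direction, while Ptgs1, the constitutive cyclooxygenase of the synthesis list, was 41.6 CPM with Ptgs-/- and 84.7 CPM with Ptgs+/+ cells.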

How the data were processed

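Live CD45+ cells of 3 5555 tumour libraries, 1 CT26 tumour library and 1 hashtag-pooled culture library were measured once each. The authors deposited log2 values per cell and gene with the cells' annotations; per the submitters' processing notes Cell Ranger 3.0.2, Partek and mm10 were used, and other steps are not given in the sources used here. Undoing the deposited log2 scale gave CPM that summed in every cell to the expected total within 0.00245%, and division by each cell's step for 1 UMI gave whole UMIs for 99.9% of values (within 0.1 UMI or 0.01%), all receptor values included.

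Classes are the authors'; monocytes with macrophages pool 7 clusters in 5555 and 6 in CT26 tumours. Classes compared had at least 30 cells in each group. Levels are mean CPM over cells, and folds add a pseudocount of 5 CPM. Backgrounds and lists use genes in at least 5% of cells of either group. Intervals are 95% exact Poisson, Clopper-Pearson or conditional binomial, and a count of 0 allows up to 3 counts. No doublet caller was run. Alternatives left out cells with the most genes or with a gene of another lineage, and changed pseudocount, weighting and thinning depth. The text names from each pathway list at most 3 genes with the largest change in at least 10% of cells, the 3 genes of highest r, and genes from the 5 of highest smallest or lowest largest fold in receptor-bearing cells. Members and lists were chosen with earlier results of these data known. The calculation was tested on simulated data. Python 3.11.15, numpy 2.4.6, scipy 1.17.1 and pandas 2.3.3 were used. Protein sequences were not used here.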

Additional observations from a re-analysis of the deposited data

Results flagged for a closer look

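Ptger4 was also found in cells that entered no class: 15 UMIs in the 54 cells of the 5555 matrix that had no annotation or shared a barcode between libraries. This signal lies outside the comparisons and above the 3 counts that a count of 0 allows. The median depth of these cells was 10311 UMIs, above that of each tumour library, and they held 2 Ptger2 UMIs. What these cells are was not tested.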

How the results depend on the processing

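No paired analysis was possible because each group is 1 library or hashtagged condition with no replicate numbers. None of the log2 folds tried changed sign while called. Of 216 values of the 30 main folds under other settings, 214 differed from the reported value by less than its 95% counting error, which is wide for low genes: a pseudocount of 20 CPM gave -0.25 in place of -0.69 for Ptger3 of cDC2 in both co-cultures over untreated and 0.30 in place of 0.60 for Ptger2 of cDC1 with Ptgs+/+ cells. A pseudocount of 20 CPM gave 1.15 in place of 1.505 for Ptger4 of monocytes with macrophages, Ptgs-/- over Ptgs+/+ tumours, and the UMI ratio gave -1.79 in place of -0.69 for Ptger3 of cDC2, with Ptgs-/- cells over untreated. Without thinning, the log2 ratio of the share of cells with a UMI was 0.82 in place of 0.38 for Ptger2 and 1.08 in place of 0.57 for Ptgir in monocytes with macrophages, Ptgs-/- over Ptgs+/+ tumours, and 0.27 in place of 0.69 for Ptger4 in cDC2, NK-depleted over undepleted Ptgs-/- tumours. The cause of these changes was not tested. The side of the 1.5-fold limit changed for 4 of the 30 with a pseudocount of 1 CPM, 5 with 20 CPM, 4 with the UMI ratio, 3 without cells of another lineage and 5 relative to the median of all genes, a setting chosen after seeing the data. Among single clusters, Mono Mac changed when the gene-richest 5% of each library's cells were dropped. Its log2 folds, Ptgs-/- over Ptgs+/+, were 2.29 in place of 0.16 for Ptger4 and 1.35 in place of 0.37 for Ptger2. How many Mono Mac cells this removed is not given here. Of 60 folds of genes in receptor-bearing cells, 33 moved by over 0.5 times their size without reweighting to cluster and depth, with a change of sign for Rassf2 (-0.11) and Ctsl (-0.12) among others. Leaving out the NK cell class of the depleted library, a setting chosen after seeing the data, gave an r of 0.47 in place of 0.88 for Pdzk1ip1, the gene most like Ptger3. Intervals and limits cover counting error only, and a class with 10 or fewer UMIs has an interval wider than 1.5-fold.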

Other observations

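After NK cell depletion, cDC2 also had more Ptgs2 (467 CPM in NK-depleted and 208 CPM in undepleted Ptgs-/- tumours) and more Pde4b (157 and 91.6 CPM). In monocytes with macrophages Hpgds was 27.3 CPM in NK-depleted and 45.9 CPM in undepleted Ptgs-/- tumours. Tbxa2r, the thromboxane receptor gene, was mostly a transcript of plasmacytoid DCs (pDC) in the cultures, with 47 of 57 UMIs with Ptgs-/- cells and 33 of 51 with Ptgs+/+ cells, against 55 of 100 in untreated cultures. Its level in pDC was 35.4 CPM with Ptgs-/- and 46.5 CPM with Ptgs+/+ cells, against 62.8 CPM untreated, in 312, 200 and 200 cells. In CT26 tumours pDC held 40 of 75 Tbxa2r UMIs.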
